A study of Homo sapiens with 8 samples.

Results

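The genes described here are 10 transcription factors of endothelial cells, ERG, FLI1, ETS1, GATA2, TAL1, SOX7, SOX17, SOX18, KLF2 and KLF4, out of 27946 genes in the expression table. They were chosen by symbol, with 1 transcript per symbol, the one with the highest mean level over 8 libraries. RNA-seq of ribosome-depleted RNA was done in EA.hy926, a hybrid line made by fusing umbilical vein endothelial cells with cells of a lung carcinoma line, grown in medium with serum. The study asked what happens to transcription when pieces of the super-enhancer SE12313 are removed with CRISPR/Cas9. One deletion took out E2, the endothelial enhancer (ΔE2), and the other took out SE12313-b, a stretch of the same super-enhancer that had been inactive in reporter tests (ΔSE12313-b). There were 2 control libraries of EA.hy926 without a deletion, 3 of ΔE2 and 3 of ΔSE12313-b. Each deletion library came from a line grown from 1 cell, so a difference between lines includes whatever else sets those single cells apart. The labels call the control libraries clones as well, and the study speaks of a control line, which for the proliferation assay had been given guide RNAs. Whether the RNA controls were the same cells is not stated. Nothing says that the 2 control libraries are separate cultures, so the spread between them may be technical. The p values use a spread pooled over the 3 groups, which comes mostly from the deletion lines. They do not measure how control lines would differ from each other.

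Endothelial identity is kept by a small set of factors that act on shared enhancers. ERG, FLI1 and ETS1 belong to the ETS family and bind DNA around a GGAA core. ERG and FLI1 keep up junction and lineage genes, and ETS1 is linked to angiogenesis and responds to growth factor signals. GATA2 binds GATA motifs and TAL1 binds E-boxes with a partner protein, and both also work in blood stem cells, where they share enhancers with ETS factors. SOX7, SOX17 and SOX18 form the SOXF group, which acts in arterial and lymphatic specification. KLF2 and KLF4 are zinc finger factors induced by laminar flow through a kinase path to MEF2, and they hold down inflammation and clotting. The cells sequenced here were grown without any flow that the methods describe.

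Levels are given as FPKM, fragments per kilobase of transcript scaled to the reads of the library, which can be set side by side between genes. The libraries held 12067554 to 12696172 reads in control, 13616465 to 19101146 in ΔE2 and 14814167 to 16085525 in ΔSE12313-b. Changes are log2 fold changes of FPKM + 0.1 from limma, with p adjusted by Benjamini-Hochberg over the 13790 genes that passed a filter on low values (FPKM reaching 0.5 in 2 libraries or more). A gene is said to have risen or fallen, or to be called, where the adjusted p was under 0.05 and the change at least 2-fold, a log2 fold change of 1. Over all genes tested the median log2 fold change was 0.14 for ΔE2 and 0.27 for ΔSE12313-b, so a member's change is to be read against that shift. In bulk RNA, fewer cells of a type and less RNA per cell cannot be told apart. The gene next to the super-enhancer, ADAMTS18, had FPKM of 0.682 and 0.859 in control, 0.087 to 0.149 in ΔE2 and 0.128 to 0.232 in ΔSE12313-b.

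Of the 10 factors, 9 passed the filter. In ΔE2, 4 of the 9 rose (ERG, FLI1, ETS1 and GATA2) and 0 fell, where 11.2% of all genes tested rose and 8.36% fell. In ΔSE12313-b, 3 of the 9 rose (ERG, GATA2 and SOX7) and 0 fell, where 14.7% of all genes rose and 7.83% fell. In the direct comparison of both deletions 1 of the 9, ETS1, was called, against 4.23% of all genes. The median log2 fold change of the 9 was 0.92 in ΔE2 and 0.28 in ΔSE12313-b. The count in ΔSE12313-b depends on the scaling between libraries: with each library centred on its median ratio to the mean library, with quantile normalization, or with voom on recovered reads, 1 of the 9, GATA2, was called. In ΔE2 the count was between 3 and 5 under all alternatives tried. Both deletions were set against the same control libraries, so the rises in the 2 comparisons are not independent of each other.

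**Figure D1:**
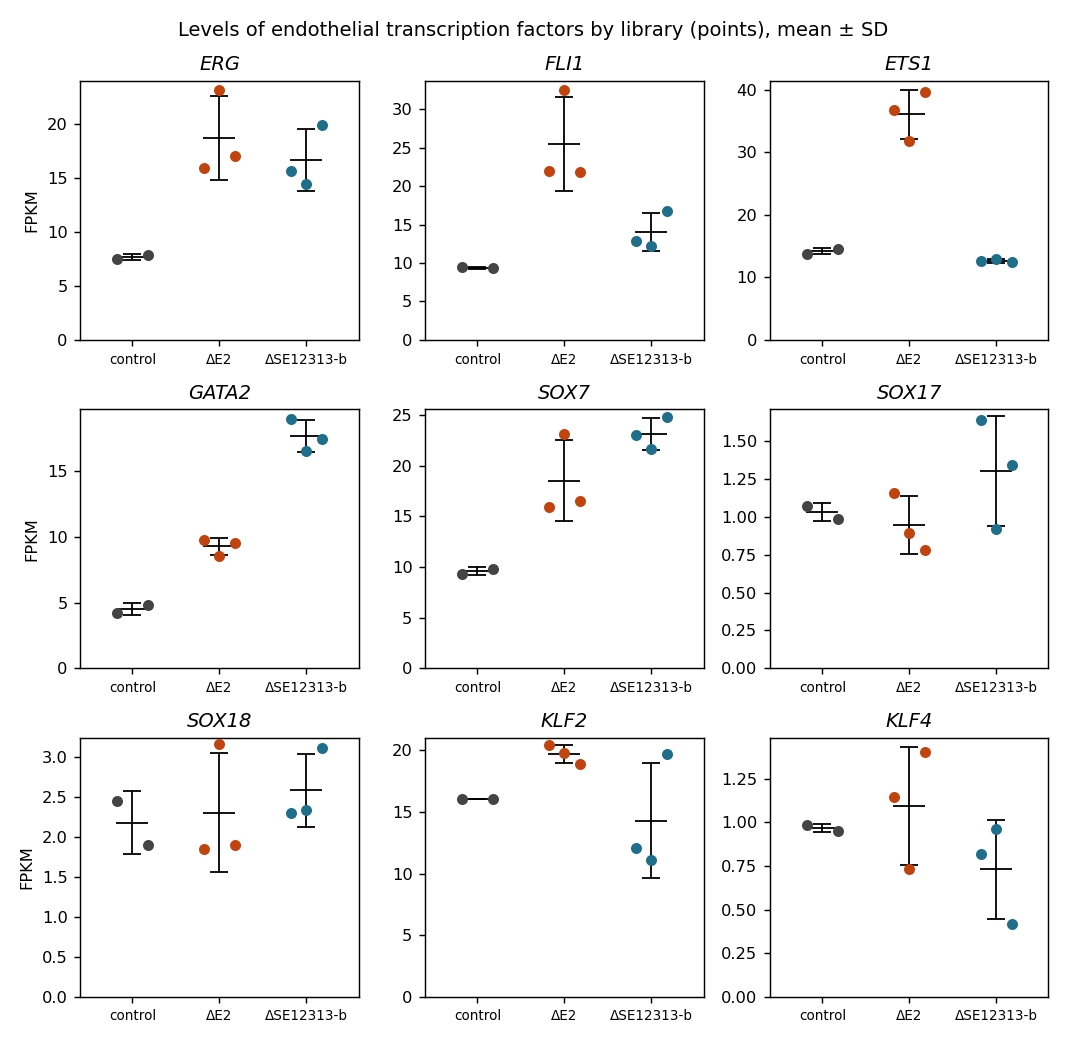
FPKM of 9 factors (y axis, linear from 0, own scale per gene) in the 2 control, 3 ΔE2 and 3 ΔSE12313-b libraries. Points are libraries and bars are mean ± SD. ERG and SOX7 lay above control in all 6 deletion libraries, ETS1 in the 3 ΔE2 libraries alone, and GATA2 lay highest in ΔSE12313-b. TAL1, at 0 in every library, is not drawn.

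The 250 bases before the annotated start of the kept transcript are shown for 3 of the 4 factors that rose in ΔE2, ERG, ETS1 and GATA2, so that letters read by factors of the set can be looked for in them. They were read from GRCh37, the build of the files, in the direction of the gene. Capitals mark GGAAG (or its reverse complement CTTCC), a form of the ETS core, and GATAA (or TTATC), a form of the GATA motif. The windows are chr21:39870429-39870678, minus strand for ERG, chr11:128392206-128392455, minus strand for ETS1, and chr3:128206765-128207014, minus strand for GATA2.
ERG: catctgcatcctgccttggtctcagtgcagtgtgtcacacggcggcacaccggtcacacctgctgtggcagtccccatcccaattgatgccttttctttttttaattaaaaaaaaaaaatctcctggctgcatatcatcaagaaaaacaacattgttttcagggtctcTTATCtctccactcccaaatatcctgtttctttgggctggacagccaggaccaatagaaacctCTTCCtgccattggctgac
ETS1: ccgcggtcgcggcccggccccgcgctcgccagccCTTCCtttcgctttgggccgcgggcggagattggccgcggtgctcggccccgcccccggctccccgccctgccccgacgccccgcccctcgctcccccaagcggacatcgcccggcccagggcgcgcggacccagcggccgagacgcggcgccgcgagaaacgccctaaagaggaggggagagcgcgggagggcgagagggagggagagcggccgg
GATA2: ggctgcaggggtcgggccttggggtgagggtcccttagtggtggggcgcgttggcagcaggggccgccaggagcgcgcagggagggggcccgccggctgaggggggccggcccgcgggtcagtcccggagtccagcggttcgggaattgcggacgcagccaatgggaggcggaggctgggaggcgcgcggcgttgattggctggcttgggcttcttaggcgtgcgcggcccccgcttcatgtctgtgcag

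The ERG window held 1 GGAAG site and 1 GATAA site, that of ETS1 1 and 0, and that of GATA2 0 and 0. On both strands GGAAG was found in 63.1% of 27862 windows of the same length, 1 for each gene with a kept transcript, and GATAA in 20.3%. Matches to an E-box (CANNTG) numbered 3 in the ERG window and 0 in each of the others, against 62.1% of all windows with at least 1. The SOX letters ACAAT were found once before ERG (23.6% of all windows), and the KLF letters CACCC once before GATA2 (54.8%). The windows differed in base composition, from 46.4% G+C for ERG through 73.6% for GATA2 to 80.0% for ETS1. Sites of different motifs may share bases. A match is a string of letters and not a bound site. All transcripts of ETS1 end at the same base, as do all of GATA2 and most of ERG. For these, FPKM cannot tell which start was used.

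ERG (chromosome 21, 39751950 to 39870428, minus strand, 21q22.2) is an ETS factor that healthy adult tissue expresses mainly in endothelium. Its FPKM was 7.51 and 7.85 in control, 15.9, 23.2 and 17.1 in ΔE2, and 15.6, 14.4 and 19.9 in ΔSE12313-b. All 6 deletion libraries lay above both controls. The ranges of the deletions overlapped each other. The mean rose from 7.68 ± 0.240 (SD, n = 2) to 18.7 ± 3.92 in ΔE2 and 16.6 ± 2.89 in ΔSE12313-b (SD, n = 3 each). The log2 fold change was 1.25 (SE 0.19, limma adjusted p = 0.000836) in ΔE2 and 1.09 (SE 0.19, limma adjusted p = 0.00141) in ΔSE12313-b. The rise in ΔSE12313-b went under 2-fold without ΔSE12313-b replicate 3 (0.96), when centred (0.80), with quantile normalization (0.75) and with voom (0.82), with an adjusted p of at most 0.0128 under any alternative. ERG has 10 transcripts in the table, of which 9 were tested, and their log2 fold changes spanned 1.24 to 1.35 (ΔE2) and 1.07 to 1.18 (ΔSE12313-b). Many of their reads are the same, so this narrow span is not separate evidence.

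FLI1 (chromosome 11, 128563811 to 128683162, plus strand, 11q24.3) is the closest relative of ERG and is shared with blood cells. Its FPKM was 9.46 and 9.29 in control, 21.9, 32.5 and 21.9 in ΔE2, and 12.9, 12.2 and 16.8 in ΔSE12313-b. The 3 groups did not overlap: control was lowest, ΔSE12313-b stood between, and ΔE2 was highest. FLI1 rose in ΔE2, with a log2 fold change of 1.40 (SE 0.20, limma adjusted p = 0.000677). In ΔSE12313-b its log2 fold change of 0.56 (SE 0.20, limma adjusted p = 0.0411) was under 2-fold, and its adjusted p ran from 0.0105 to 0.433 over the alternatives. The 4 transcripts of FLI1 gave 1.34 to 1.40 (ΔE2) and 0.54 to 0.56 (ΔSE12313-b). They count mostly the same reads, so their likeness is not separate evidence. SENCR, a non-coding RNA on the opposite strand of FLI1 that overlaps the kept transcript, had mean FPKM of 2.36 in control, 10.7 in ΔE2 and 6.22 in ΔSE12313-b. The library kit keeps strand, but how the deposited FPKM treated strand is not given in the sources used here, so reads of FLI1 and SENCR in the shared stretch may not be told apart.

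ETS1 (chromosome 11, 128328656 to 128392205, minus strand, 11q24.3) starts 171.6 kb from FLI1. Its FPKM was 13.8 and 14.6 in control, 36.8, 31.8 and 39.6 in ΔE2, and 12.7, 13.02 and 12.4 in ΔSE12313-b. The 3 ΔE2 libraries were all far above control, and the 3 ΔSE12313-b libraries were all slightly below it. ETS1 rose in ΔE2, with a log2 fold change of 1.33 (SE 0.10, limma adjusted p = 2.61e-05). In ΔSE12313-b the value was -0.16 (95% interval -0.39 to 0.07, limma adjusted p = 0.197), an interval that leaves out any rise of 2-fold. The adjusted p of this small difference was as low as 0.00149 and its value as low as -0.54 under other settings. The direct comparison gave 1.49 (SE 0.09, 95% interval 1.29 to 1.70, limma adjusted p = 0.00013), with ΔE2 higher. The 4 transcripts of ETS1, which count mostly the same reads, gave 1.48 to 1.51.

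GATA2 (chromosome 3, 128198265 to 128206764, minus strand, 3q21.3) is a zinc finger factor that works with ETS factors at endothelial enhancers. Its FPKM was 4.20 and 4.85 in control, 9.81, 8.58 and 9.53 in ΔE2, and 18.96, 16.6 and 17.4 in ΔSE12313-b. The 3 groups did not overlap, and the order of the deletions was the reverse of that of FLI1. The mean went from 4.52 ± 0.461 (SD, n = 2) to 9.30 ± 0.641 and 17.7 ± 1.22 (SD, n = 3 each), 3.90 times control in ΔSE12313-b. The log2 fold change was 1.03 (SE 0.10, limma adjusted p = 0.000131) in ΔE2 and 1.94 (SE 0.10, limma adjusted p = 3.99e-06) in ΔSE12313-b. In ΔE2 the value sits at the 2-fold limit, and it went under it without control replicate 1 (0.92), without ΔE2 replicate 1 (0.99), with a pseudocount of 1 (0.90), when centred (0.87), with quantile normalization (0.86) and with voom (0.88). The direct comparison gave -0.92 (SE 0.09, 95% interval -1.13 to -0.70, limma adjusted p = 0.000879), lower in ΔE2 and under 2-fold. GATA2-AS1, a non-coding RNA on the opposite strand that does not overlap the kept transcript, had mean FPKM of 0.513 in control, 0.531 in ΔE2 and 1.35 in ΔSE12313-b.

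TAL1 (chromosome 1, 47681962 to 47697387, minus strand, 1p33), a basic helix-loop-helix factor of blood and early endothelium, had 0 reads in all 8 libraries over its 6 transcripts. A count of 0 allows up to 3 reads per library, for counting error only. It was not tested and no fold change can be given.

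SOX7 (chromosome 8, 10581278 to 10588084, minus strand, 8p23.1) had FPKM of 9.33 and 9.85 in control, 15.9, 23.1 and 16.5 in ΔE2, and 23.0, 21.6 and 24.8 in ΔSE12313-b. All 6 deletion libraries lay above both controls, and the deletions overlapped each other through ΔE2 replicate 2. SOX7 rose in ΔSE12313-b, with a log2 fold change of 1.26 (SE 0.16, limma adjusted p = 0.000288), though it went under 2-fold when centred (0.97), with quantile normalization (0.90) and with voom (0.98). In ΔE2 the value of 0.92 (SE 0.16, limma adjusted p = 0.00175) was under 2-fold, and without ΔE2 replicate 1 it was 1.02 and past the limit. It was as low as 0.75 with 1 library left out and 0.69 under other settings, with an adjusted p of at most 0.0167 under any alternative. The other two SOXF genes were much lower. SOX17 (chromosome 8, 55370495 to 55373456, plus strand) had FPKM of 1.07 and 0.989 in control, 1.16, 0.896 and 0.783 in ΔE2, and 1.64, 0.921 and 1.34 in ΔSE12313-b. SOX18 (chromosome 20, 62679079 to 62680979, minus strand) had 2.45 and 1.90, then 1.85, 3.16 and 1.90, then 2.30, 2.34 and 3.11. For both genes each deletion overlapped control. The interval of the log2 fold change of SOX17 spanned -0.75 to 0.50 for ΔE2 and -0.35 to 0.90 for ΔSE12313-b, and that of SOX18 spanned -0.55 to 0.64 and -0.36 to 0.83, so a change of 2-fold lies outside all 4 intervals. These values rest on few reads, 25 to 62 per library for SOX17 and 39 to 92 for SOX18. SOX7 made up 72.6% and 77.3% of the summed SOXF FPKM in control, 84.1% to 86.0% in ΔE2 and 84.8% to 86.9% in ΔSE12313-b. A non-coding transcript on the opposite strand of SOX7, LOC102723313, overlaps it with mean FPKM of at most 0.115 in any group.

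KLF2 (chromosome 19, 16435637 to 16439473, plus strand, 19p13.11) had FPKM of 16.1 in both control libraries, 20.4, 19.8 and 18.9 in ΔE2, and 12.1, 11.1 and 19.7 in ΔSE12313-b. The 3 ΔE2 libraries lay above control, and ΔSE12313-b fell on both sides of it. The log2 fold changes of 0.29 (95% interval -0.20 to 0.79) in ΔE2 and -0.21 (95% interval -0.71 to 0.28) in ΔSE12313-b did not pass the test, with limma adjusted p of 0.279 and 0.421. ΔSE12313-b replicate 3 weighed on both. Without it the value was -0.46 in ΔSE12313-b (limma adjusted p = 0.00246) and the limma adjusted p in ΔE2 was 0.0129, both under 2-fold. Over the other alternatives the ΔE2 value was as low as 0.0079 and its adjusted p as high as 0.978. In ΔSE12313-b quantile normalization gave -0.62 (limma adjusted p = 0.0381). KLF4 (chromosome 9, 110247133 to 110252001, minus strand, 9q31.2) had 0.985 and 0.950 in control, 1.15, 0.730 and 1.40 in ΔE2, and 0.820, 0.961 and 0.415 in ΔSE12313-b, from 19 to 63 reads per library. Both deletions overlapped control. Its intervals were wide, spanning -0.74 to 0.97 for ΔE2 and -1.28 to 0.43 for ΔSE12313-b, so a fall of 2-fold in ΔSE12313-b lies within its interval.

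**Figure D2:**
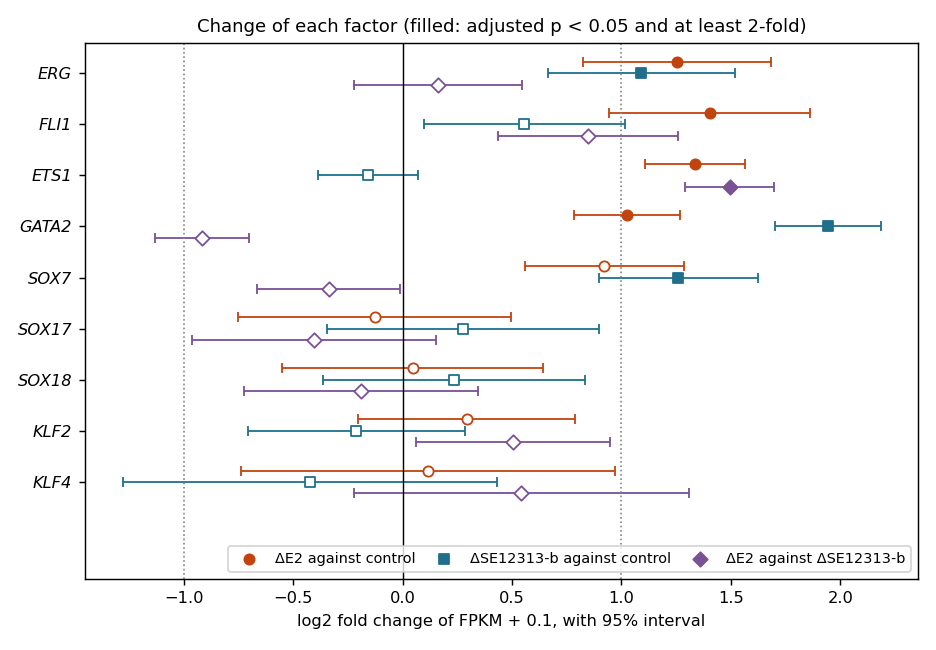
Log2 fold change of FPKM + 0.1 (x axis) with its 95% interval for 9 factors (y axis) for each deletion against control and for ΔE2 relative to ΔSE12313-b. Filled symbols are called and dotted lines mark 2-fold. ETS1 is the one factor filled in the direct comparison, at 1.49, with FLI1 (0.85) and GATA2 (-0.92) on opposite sides of 0.

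Set against each other, the deletions differed in ETS1 by more than 2-fold. FLI1 was also higher in ΔE2, by 0.85 (SE 0.18, limma adjusted p = 0.0115), and GATA2 was lower, both under 2-fold. For ERG the difference was 0.16 (95% interval -0.22 to 0.55, limma adjusted p = 0.513), for SOX7 -0.34 (95% interval -0.66 to -0.01, limma adjusted p = 0.117) and for KLF2 0.50 (95% interval 0.06 to 0.95, limma adjusted p = 0.0903). Without ΔE2 replicate 2 the ERG difference was -0.0014. Counted by libraries, 3 of the 9 factors had ranges that did not overlap between the deletions, against 40.8% of all genes. Against control, 6 of the 9 did not overlap in ΔE2 (73.5% of all genes) and 5 of the 9 in ΔSE12313-b (75.3%), so non-overlap with control was common in this table.

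The clones of 1 deletion also differed among themselves. ΔE2 replicate 2 was the highest ΔE2 library for ERG, FLI1, SOX7 and SOX18 and the lowest for ETS1, GATA2 and KLF4. ΔSE12313-b replicate 3 was the highest of its group for ERG, FLI1, SOX7, SOX18 and KLF2 and the lowest for ETS1 and KLF4. The junction gene CDH5, a known ERG target, was highest in the same 2 libraries of the deletions, with FPKM of 72.5, 141 and 83.8 in ΔE2 and 74.8, 64.3 and 92.8 in ΔSE12313-b. The control values were 102 and 103, so ΔE2 replicate 2 lay above control and the other 5 deletion libraries below it. The ratio of ETS1 to ERG in FPKM was 1.84 and 1.85 in control, 2.32, 1.37 and 2.32 in ΔE2, and 0.812, 0.903 and 0.623 in ΔSE12313-b. Every ΔSE12313-b library thus held less ETS1 than ERG, and every other library more. The ratio of GATA2 to ERG was 0.559 and 0.618 in control, 0.617, 0.370 and 0.558 in ΔE2, and 1.22, 1.15 and 0.877 in ΔSE12313-b.

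The order of the levels changed between groups. In control, KLF2 (mean FPKM 16.1) was highest, followed by ETS1 (14.2), SOX7 (9.59), FLI1 (9.38), ERG (7.68), GATA2 (4.52), SOX18 (2.18), SOX17 (1.03) and KLF4 (0.968), and the ranges of SOX7 and FLI1 overlapped. In ΔE2, ETS1 (36.1) and FLI1 (25.4) led with overlapping ranges, then KLF2 (19.7), ERG (18.7) and SOX7 (18.5), which overlapped in turn, then GATA2 (9.30). In ΔSE12313-b, SOX7 (23.1) was highest, and GATA2 (17.7), ERG (16.6), KLF2 (14.3), FLI1 (14.0) and ETS1 (12.7) each overlapped the next in order. GATA2 thus moved from the sixth place to the second. SOX18, SOX17, KLF4 and TAL1 stayed at the low end of the order in all 3 groups.

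FLI1 and ETS1 are neighbours on 11q24.3, and the genes around them moved too. Of 38 tested genes that start within 5 Mb of the ETS1 start, both factors included, 36 (94.7%) were higher in ΔE2 than in ΔSE12313-b, where 35.7% of all genes tested were. The median log2 fold change of the 38 in that comparison was 0.64, against -0.11 for all genes. ETS1 ranked 1 of the 38 by that value and FLI1 ranked 11, and 5 were called, all higher in ΔE2: ETS1, APLP2, ROBO4, ZBTB44 and NFRKB. Taken over all 546 tested genes of 11q, the median was 0.28, and over 244 of 11p it was -0.14. For the 60 tested genes within 5 Mb of GATA2 the median was 0.18 in ΔE2, 0.61 in ΔSE12313-b and -0.39 in the direct comparison, the same direction as GATA2 itself. The 395 tested genes of 3q had 0.12, 0.46 and -0.34. Around ERG (52 genes) the medians were 0.32 in ΔE2 and 0.38 in ΔSE12313-b, and around SOX7 (28 genes) 0.00 and -0.05. Regional shifts of this kind thus moved with the differences of ETS1, FLI1 and GATA2 between the deletions, and their part in those differences was not tested. The arms were looked at after the values had been seen.

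**Figure D3:**
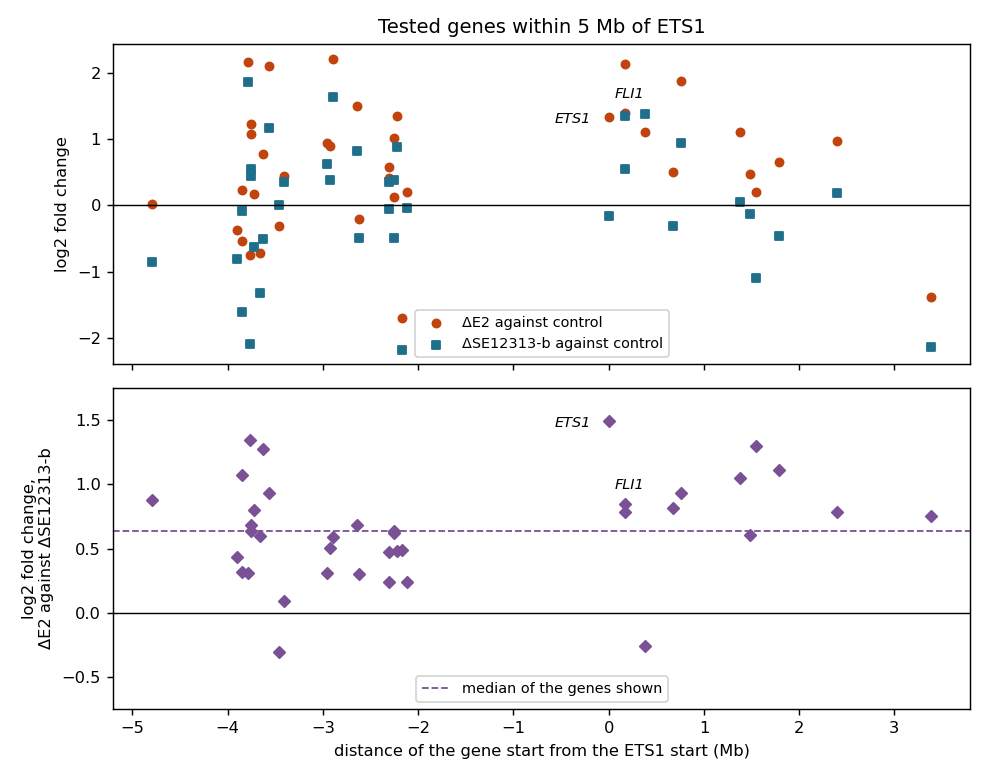
Log2 fold change (y axes) of the 38 tested genes within 5 Mb of ETS1 by distance of their start from that of ETS1 in Mb (x axis). The upper panel has each deletion against control and the lower panel ΔE2 against ΔSE12313-b, with the median of 0.64 as a dashed line. In the lower panel 36 of 38 genes lie above 0, with ETS1 at 1.49 and FLI1 at 0.85.

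Relatives and partners of the factors came from lists chosen by family. Their calls are to be read against all genes tested. Of those, 11.2% rose and 8.36% fell in ΔE2, and 14.7% rose and 7.83% fell in ΔSE12313-b. Of 25 other ETS genes 15 were tested, and limma called 0 in either deletion, as did voom on recovered reads. At an unadjusted p under 0.05, 4 were higher and 1 lower in ΔE2, while 5 were higher and 0 lower in ΔSE12313-b. Of all genes tested, 37.7% were higher and 21.97% lower at that p in ΔE2, and 45.5% and 18.4% in ΔSE12313-b. The medians of these 15 ETS genes were 0.04 for ΔE2 and 0.25 for ΔSE12313-b. Of 16 other GATA factors and partners of TAL1 and GATA2, 11 were tested. In ΔE2 limma called 0 of the 11 (3 were higher and 2 lower at an unadjusted p under 0.05) and voom called 1. In ΔSE12313-b LYL1, the closest relative of TAL1, rose by 1.55 (limma adjusted p = 0.000252) while GATA6 had -1.08 (limma adjusted p = 0.0211). The call of GATA6 was lost without control replicate 1 (limma adjusted p = 0.0908), without control replicate 2 (limma adjusted p = 0.0753), without ΔSE12313-b replicate 3 (-0.80), with a pseudocount of 1 (-0.83) and with the replicate block (limma adjusted p = 0.0534). LYL1 had FPKM of 5.92 and 6.42 in control, 11.8, 10.8 and 12.3 in ΔE2, and 19.96, 13.7 and 22.4 in ΔSE12313-b, with 0 overlaps between the groups. Of 16 other SOX genes 3 were tested, and SOX13 rose in ΔSE12313-b (1.48, limma adjusted p = 8.4e-06). SOX8, under the filter, had FPKM of 0.466 and 0.218 in control, 0 in every ΔE2 library and at most 0.021 in ΔSE12313-b. The study lists SOX8 among its strongest falls in both deletions. SOX30, also under the filter, had 0.219 and 0.077 in control and 0 in every deletion library.

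Of 15 other KLF genes 9 were tested, and 1 of them, KLF9, a factor induced by glucocorticoids, fell in both deletions. Among all genes tested, 8.36% fell in ΔE2 and 7.83% in ΔSE12313-b. Its FPKM was 2.88 and 2.67 in control, 0.734, 1.23 and 0.960 in ΔE2, and 0.239, 0.156 and 0.435 in ΔSE12313-b. The log2 fold change was -1.44 in ΔE2 (limma adjusted p = 0.00897) and -2.999 in ΔSE12313-b (limma adjusted p = 0.000194), and the direct difference of 1.56 was called as well (limma adjusted p = 0.00957). The call in ΔE2 was lost without control replicate 1 (limma adjusted p = 0.0679), without control replicate 2 (limma adjusted p = 0.0539) and with a pseudocount of 1 (-0.94). All 11 genes of the kinase path to MEF2 and of the CCM proteins that restrain it were tested. HEG1, a membrane partner of the CCM proteins, rose in ΔE2 (1.66, limma adjusted p = 9.99e-05) and had 0.94 in ΔSE12313-b. At an unadjusted p under 0.05, 3 of the 11 were higher and 2 lower in each deletion. Of all genes tested, 37.7% were higher and 21.97% lower at that p in ΔE2, and 45.5% and 18.4% in ΔSE12313-b. The lower genes were MAP2K5 (-0.71 in ΔE2 and -0.44 in ΔSE12313-b) and MEF2D (-0.68 and -0.67), both under 2-fold. MAPK7, the kinase ERK5 of this path, had FPKM between 2.88 and 3.58 in the 8 libraries.

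Among 25 other transcription factors of endothelium, 20 were tested. In ΔE2 1 rose and 2 fell, where 11.2% of all genes tested rose and 8.36% fell. HHEX, a homeobox factor, had 1.13, HEY1, a Notch target, -2.15, and FOXC1, a forkhead factor, -1.20. In ΔSE12313-b 3 rose and 1 fell, where 14.7% of all genes rose and 7.83% fell. HHEX had 1.58 there, TEAD4, the DNA-binding partner of YAP, 1.25, and NR2F2, the vein factor COUP-TFII, 1.17, while its relative NR2F1 had -1.48. HHEX had FPKM of 9.79 and 10.6 in control, 19.02 to 26.02 in ΔE2 and 26.99 to 36.01 in ΔSE12313-b, with 0 overlaps between the groups. The call of HHEX in ΔE2 and that of TEAD4 in ΔSE12313-b went under 2-fold when centred (0.98 and 0.96), with quantile normalization (0.89 and 0.82) and with voom (0.97 and 0.97), and FOXC1 had -0.97 without control replicate 2 and -0.81 with a pseudocount of 1. NR2F2 in ΔSE12313-b had 0.90 once the median of all genes tested was taken off, under 2-fold. Its values under the other settings are not given here. The medians of the 20 were 0.18 and 0.25, close to those of all genes tested.

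Of 25 endothelial genes known as targets of these factors, 21 were tested, with medians of 0.52 (ΔE2) and 0.58 (ΔSE12313-b). In ΔE2 6 rose and 4 fell, where 11.2% of all genes tested rose and 8.36% fell. In ΔSE12313-b 5 rose and 3 fell, where 14.7% of all genes rose and 7.83% fell. The 10 calls in ΔE2 became 6 without control replicate 1, with a pseudocount of 1 and with quantile normalization. EDN1, which encodes the vasoconstrictor endothelin-1 and is held down by KLF2, had FPKM of 1.17 and 1.15 in control, 26.04, 21.9 and 31.1 in ΔE2, and 15.4, 11.2 and 11.8 in ΔSE12313-b. Its log2 fold change was 4.38 (limma adjusted p = 9.73e-07) and 3.34 (limma adjusted p = 3.47e-06). ICAM2, an adhesion molecule under ERG, went from 37.8 and 34.5 to between 210 and 263 in the 6 deletion libraries, with 2.77 in ΔE2 and 2.70 in ΔSE12313-b. THBD, the anticoagulant receptor thrombomodulin and a target of KLF2 and KLF4, fell from 96.7 and 95.4 to between 19.6 and 26.2, with -2.03 and -2.13. NOS3, the endothelial nitric oxide synthase and another KLF2 target, had 0.90 and 0.96, under 2-fold. ROBO4 (1.28) and EDN1 (1.03) were called as higher in ΔE2 than in ΔSE12313-b, and ROBO4 is among the 38 genes around ETS1. EMCN, called as lower in ΔE2, was listed at 0 in 2 ΔE2 libraries and 0.160 in the third, and it was at 0.333 and 0.371 in control and 0.671 to 1.58 in ΔSE12313-b.

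**Figure D4:**
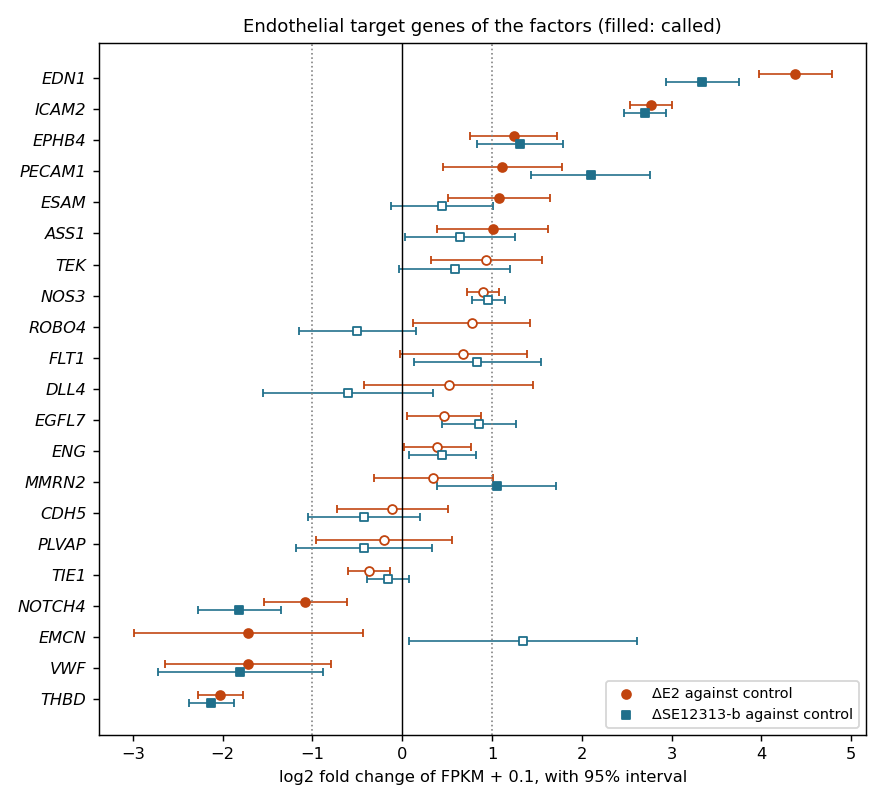
Log2 fold change of FPKM + 0.1 with its 95% interval (x axis) for 21 endothelial target genes (y axis), in ΔE2 and ΔSE12313-b against control. Filled symbols are called and dotted lines mark 2-fold. EDN1 (4.38 and 3.34) and ICAM2 (2.77 and 2.70) are at the top, and THBD (-2.03 and -2.13) is at the bottom.

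The genes most like each factor over the 8 libraries were found by Pearson's r of log2(FPKM + 0.1), as a description with no test. The 8 points fall into 3 groups, and a high r mostly repeats the order of the groups. The nearest genes were CYB5B (0.994) and HTR1D (0.992) for ERG, CD34 (0.989) and CAV2 (0.988) for FLI1, CD33 (0.990) and MIR6875 (0.9905) for ETS1, COMMD7 (0.996) and PRCC (0.996) for GATA2, and TBC1D2B (0.994) and LIPG (0.993) for SOX7. CD34, a surface protein of endothelial and blood stem cells, had log2 fold changes of 2.84 with ΔE2 and 1.14 with ΔSE12313-b, the same order as FLI1. MIR6875 had 3.26 with ΔE2 and 0.0 with ΔSE12313-b, so its r may rest on values of 0 in control and ΔSE12313-b. For factors that did not pass the test the nearest genes were less close, RRAGB (0.971) and STAC3 (0.942) for SOX18, C4orf3 (0.964) and RRBP1 (0.963) for KLF2, and DHRS13 (0.926) and IFT20 (0.916) for SOX17.

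Markers of cell identity were read beside these values. Of 8 endothelial markers 7 were tested, and their summed FPKM was 201 to 202 in control, 182 to 309 in ΔE2 and 174 to 239 in ΔSE12313-b. In ΔE2 2 of them rose (PECAM1, 1.11, and ESAM, 1.08) and 2 fell (VWF, -1.72, and EMCN), and in ΔSE12313-b PECAM1 rose (2.10) and VWF fell (-1.80). The rises in ΔE2 leaned on replicate 2, with log2 values over the control mean of 1.79 for PECAM1 and 1.51 for ESAM. Replicates 1 and 3 were under 2-fold, with 0.79 and 0.76 for PECAM1 and 0.82 and 0.90 for ESAM. EMCN had 0, 11 and 0 reads in ΔE2 and 17 and 18 in control. Among all genes tested, 11.2% rose and 8.36% fell in ΔE2, and 14.7% rose and 7.83% fell in ΔSE12313-b. CDH5, whose level makes up much of the sum, and TIE1 had mean FPKM of at least 43.4 in each group, while KDR, the main VEGF receptor, had a mean FPKM of at most 0.201, so this defining marker was near 0 in EA.hy926 as sequenced here. Of 8 epithelial markers 3 were tested, KRT7, KRT8 and KRT18, and all 3 rose in both deletions, with a summed FPKM over the list of 361 to 363 in control, 1084 to 1210 in ΔE2 and 811 to 1069 in ΔSE12313-b. EPCAM and CLDN4, under the filter, were lower in the deletions, with mean FPKM of 0.399 in control, 0.186 in ΔE2 and 0.050 in ΔSE12313-b for EPCAM and of 0.329, 0.042 and 0.153 for CLDN4. CDH1 was listed at 0 in every library. Of 6 blood markers only LYZ was tested, and it rose in ΔE2 (2.40, limma adjusted p = 0.0132), from 0.313 and 0.110 to between 0.693 and 2.67. CD3E was listed at 0 throughout, and PTPRC had a mean FPKM of at most 0.004. The keratins thus rose in both deletions, as ERG did, and LYZ in ΔE2, as ETS1 and FLI1 did, and their part in those results was not tested.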

How the data were processed

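RNA-seq libraries of 8 EA.hy926 samples (2 control, 3 ΔE2, 3 ΔSE12313-b) were grouped by their labels. The authors trimmed reads with Trim Galore 0.4.4, mapped them to GRCh37 with STAR 2.5.4b and deposited FPKM per RefSeq transcript. The program and strand setting behind the FPKM are not given in the sources used here, and the authors' own counts were not used. FPKM times length gave whole reads for 100% of the values checked, within 0.1 read, and these served for depth and for voom.

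One transcript per gene was used, that of highest mean FPKM. Log2(FPKM + 0.1) of 13790 genes (FPKM reaching 0.5 in 2 libraries or more) was fitted with limma 3.58.1 in R 4.3.3 (3 groups, variance trend, two-sided, Benjamini-Hochberg). The fit was tested on simulated data. Another 21 settings were tried. The factors, lists, markers and tests were chosen with earlier results of these data known. The text names all 10 factors, the 3 called list genes with the largest change per list and deletion, the 2 genes most like each factor with a mean FPKM of at least 1, and transcripts that overlap a factor. NR2F2, CDH5, NOS3, MAPK7, MAP2K5, MEF2D, SOX8, SOX30, ROBO4, EMCN, other markers and the called genes near ETS1 were named after their values were seen. Promoter windows were read from the GRCh37 genome. Some items are not reported here.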

Additional observations from a re-analysis of the deposited data

Results flagged for a closer look

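ETS1 stood out because the effects of the deletions on it differed by the test of the difference itself. Its log2 fold change between ΔE2 and ΔSE12313-b was 1.49 (limma adjusted p = 0.00013, higher in 3 of 3 ΔE2 libraries than in any ΔSE12313-b library). The value ran from 1.42 to 1.62 over the alternatives tried. The median of the 38 tested genes within 5 Mb, ETS1 included, was 0.64 in the same comparison.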

How the results depend on the processing

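Over all results and alternatives, 843 values kept their direction and their side of the threshold, 35 counts moved by over 1.5 times, 13 values went under the threshold, 4 passed it and 12 changed sign. The 3 factors called in ΔSE12313-b became 1 when libraries were centred, with quantile normalization and with voom on recovered reads, and the 1 factor called between the deletions became 3 (ETS1, FLI1 and GATA2) at 1.5-fold. Without 1 library at a time, the factors called were 3 to 4 in ΔE2, 2 to 3 in ΔSE12313-b and 1 between the deletions. The changes of sign were all in values that did not pass the test. In ΔE2, SOX18 became -0.11 when centred, -0.12 with voom, -0.13 without control replicate 2 and -0.20 without ΔE2 replicate 2, KLF4 became -0.040 when centred, -0.064 with voom and -0.070 without ΔE2 replicate 3, and SOX17 became 0.030 with quantile normalization. In ΔSE12313-b, SOX17 became -0.012 and SOX18 -0.053 when centred, and SOX18 -0.048 with voom. Between the deletions, ERG became -0.0014 without ΔE2 replicate 2. The highest values with 1 library left out were 0.22 for SOX18 and 0.36 for KLF4 in ΔE2, and 0.30 for ERG between the deletions. Centring lowered the share of calls that rose from 57.2% to 44.4% (ΔE2) or from 65.3% to 43.3% (ΔSE12313-b), and raised it from 37.9% to 54.0% between the deletions. KLF4 was not tested with a mean FPKM of at least 1.

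Deviations from the group means correlated by -0.08 to 0.107 between same-numbered libraries of different groups, and by -0.075 to 0.137 between libraries of different number. Means of 2 or 3 libraries constrain these values, so they cannot decide whether the numbers pair the samples. With the replicate number as a block, 4 factors were called in ΔE2, 3 in ΔSE12313-b and 1 between the deletions, and FLI1 in ΔSE12313-b had 0.53 with an adjusted p of 0.0967. The causes of these shifts were not tested. The depth limits SOX17, SOX18, KLF4 and TAL1, and 2 control libraries limit every comparison with control.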
